A study of Mus musculus with 24 samples.

Results

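The genes described here make up the folding, secretion and stress machinery of the endoplasmic reticulum (ER), measured in whole mouse lung after house dust mite (HDM) allergen or phosphate-buffered saline (PBS), with and without interleukin 13. The set was chosen by function, with earlier results of these data known, and lists 43 genes. Each was read from the probe set that is annotated to that gene alone and has the highest mean signal over the 12 samples. Of the 43 genes, 42 had such a probe set, out of 18193 genes on the arrays. Of those 42, 41 passed the filter on low signal, out of 14480 genes tested. Sec61g, a small subunit of the translocation channel, had a probe set that names several genes and was not analysed. Ern2 was under the filter and is given as signal only. All 41 tested genes were above the filter in the mean of each of the 4 groups, and the closest to it was Derl3, at 1.54 times the filter in its lowest group.

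Proteins bound for the cell surface or for secretion enter the ER through the translocation channel, lose their signal peptide, are folded by chaperones and disulfide isomerases, and leave for the Golgi. Proteins that fail to fold are pulled back out and degraded. When unfolded protein builds up, sensors in the ER membrane start the unfolded protein response, which raises transcription of the folding and degradation genes. Cells that secrete heavily, such as antibody-producing plasma cells and mucus-producing goblet cells, keep this machinery high, and both cell types are known to increase in allergic airways.

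The groups were lungs of IL-13 knockout mice given HDM (KO HDM), IL-13 knockout mice given PBS (KO PBS), wild-type mice given HDM (WT HDM) and wild-type mice given PBS (WT PBS), with 3 samples each. Each sample was hybridised to both arrays of an Affymetrix mouse pair, set A and set B, which gave 24 arrays. The labels describe the knockout as a mouse strain, and the KO lungs of both treatments came from it. The strain background, sex, age, HDM dose, route and schedule are not given in the sources used here, nor is it stated that the 3 samples of a group were separate animals. The p-values then measure the spread between these samples, which may be technical. Because lung tissue was measured whole, fewer cells of a type and less RNA per cell cannot be told apart.

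Values are signal intensities, which the authors scaled to a common trimmed mean, 150.0 on each array. Markers of alveolar type 2 and club cells, which define lung tissue, were present in each of the 12 samples, with sums of 26915 or more over 9 genes and 17686 or more over 7 genes. The Il13 probe set itself was under the filter, at 8.71 to 15.5 in KO HDM lungs, 3.30 to 9.45 in KO PBS lungs, 15.5 to 29.9 in WT HDM lungs and 4.65 to 12.1 in WT PBS lungs. Which stretch of Il13 the allele removes is not given, and the ranges overlapped, so this probe set is no firm check of the labels. The ratio of 5′ to 3′ actin control signal, a measure of RNA quality, was 0.464 to 0.656 on set A in KO HDM lungs, 0.748 to 0.854 in KO PBS lungs, 0.695 to 0.832 in WT HDM lungs and 0.409 to 0.898 in WT PBS lungs. WT PBS sample 2 was the lowest, and the KO HDM range lay below the KO PBS and WT HDM ranges. The same ratio for Gapdh on set A was 1.04 to 1.16, 1.05 to 1.20, 1.09 to 1.16 and 1.04 to 1.24 in that order of groups, and these ranges overlapped. The part of RNA quality in the calls was not tested. Summed signal of 9 skeletal muscle genes was 246 to 381 in KO HDM and 287 to 463 in KO PBS lungs, against 1916, 6914 and 404 in WT HDM lungs and 327, 3197 and 525 in WT PBS lungs, so WT HDM samples 1 and 2 and WT PBS sample 2 stood apart.

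HDM raised a large share of the ER genes in both genotypes, and the largest increases were in genes of ER-associated degradation (Edem1, Derl3), in the ER stress-inducible Creld2, Manf and Sdf2l1, and in the disulfide isomerase Pdia4. In KO lungs 18 of 41 genes were higher after HDM than after PBS and 0 were lower. That is 43.9% of the ER genes, while 5.81% of all genes tested were called higher and 5.32% lower. In WT lungs 15 of 41 were higher and 1, Herpud1, was lower, against 5.51% and 5.18% of all genes. Because the set was listed with earlier results of these data known, these shares are descriptive. The same shares over all genes apply to the counts below, by function and by marker list, of genes called between HDM and PBS. A gene was called at an adjusted p under 0.05 (limma, Benjamini-Hochberg over 31596 probe sets).

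The median log2 fold change of the 41 genes was 0.44 in KO lungs and 0.39 in WT lungs, against 0.0082 and -0.0022 over all 14480 genes. Estimates were above 0 for 36 of 41 ER genes in KO lungs and for 35 of 41 in WT lungs, while 51.0% and 49.8% of all genes had estimates above 0. HDM and PBS samples did not overlap, with HDM higher, for 28 of 41 genes in KO lungs (17.4% of all genes) and 23 of 41 in WT lungs (13.3%). HDM was lower without overlap for 2 of 41 in KO lungs (17.2% of all genes) and for 1 of 41 in WT lungs (14.4%). The 14 genes that rose in both genotypes are 77.8% of the genes that rose in KO lungs and 93.3% of those that rose in WT lungs. Dnajb11, Spcs1, Spcs2 and Srp9 passed the test in KO lungs and missed it in WT lungs, and Pdia3 passed it in WT lungs and missed it in KO lungs. For Spcs1 and Spcs2 the WT miss depends on the probe set, since the second probe set of each passed in both genotypes. These 5 differences between genotypes were themselves tested as an interaction and none passed.

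**Figure D1:**
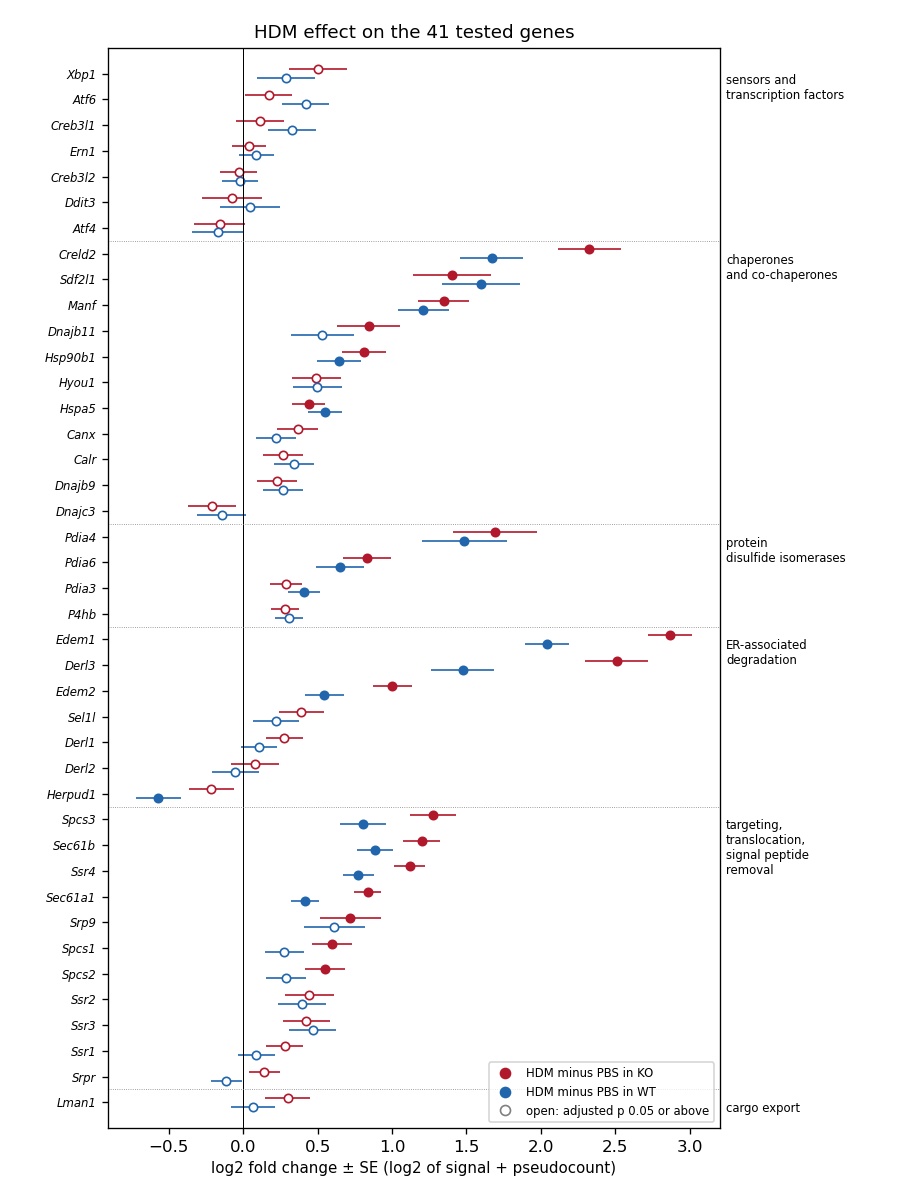
The horizontal axis gives the log2 fold change of HDM over PBS lungs for each of the 41 tested genes, with its standard error (SE), in KO lungs (red) and in WT lungs (blue). Filled points passed the test: 18 genes in KO lungs and 16 in WT lungs, with Herpud1 the called gene left of 0.

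Markers of plasma cells and of goblet and mucous cells moved with the same contrast. The 11 plasma cell genes on the arrays summed to 24680.3 to 29924 in KO HDM lungs, against 2757 to 5345 in KO PBS lungs. In WT lungs their sum was 12766 to 20153 after HDM, against 2072 to 4642 after PBS. The ranges did not overlap between HDM and PBS, nor between KO HDM and WT HDM lungs, where the KO sum was higher. Of the 11 genes, 7 were called higher after HDM in KO lungs and 6 in WT lungs. Mzb1, a plasma cell ER protein that works with the chaperone Hsp90b1, averaged 9754 ± 969.7 in KO HDM and 638 ± 155 in KO PBS lungs (SD, n = 3 each), a log2 fold change of 3.94 ± 0.28 (SE, adjusted p = 8.2e-06). Not every plasma cell marker passed: Prdm1 and Sdc1 were among those that missed the threshold in KO lungs and among those that missed it in WT lungs. No marker of this list was at 0, and Tnfrsf17 came nearest to it, at 90.3 to 116 in KO HDM lungs and 3.65 to 32.6 in KO PBS lungs.

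The 11 goblet and mucous cell genes were ordered the other way between genotypes. Their sum was 2201 to 2664 in KO HDM lungs, against 416 to 634 in KO PBS lungs. In WT lungs it was 8196 to 9502 after HDM, against 543 to 838 after PBS. Itln1, an epithelial lectin, was near 0 in KO lungs, at 2.07 to 3.66 after HDM, against 400.4 to 437 in WT HDM lungs. Of 10 goblet and mucous cell genes tested, 6 were called higher after HDM in KO lungs and 9 in WT lungs. Summed macrophage and monocyte markers were 11405 to 12506 in KO HDM lungs and 3642 to 4162 in KO PBS lungs, against 16604 to 19907 in WT HDM lungs and 3287 to 3789 in WT PBS lungs. Of these 12 genes, 10 were called higher after HDM in KO lungs and 11 in WT lungs. The part of these cell types in the ER gene results was not tested.

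**Figure D2:**
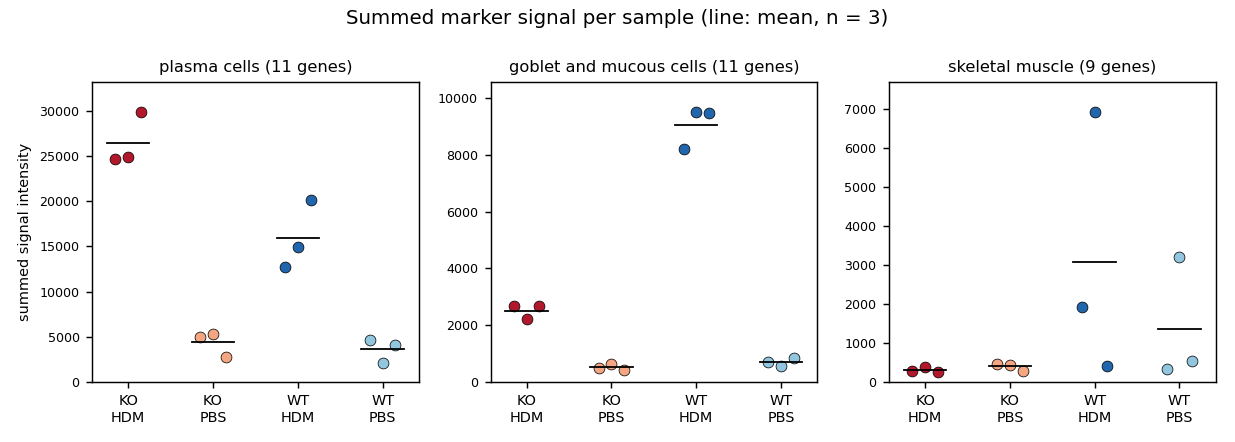
Each point is the summed signal intensity of a marker list in 1 sample, by group, and lines are group means of 3 samples. Plasma cell markers were highest in KO HDM lungs, goblet and mucous cell markers were highest in WT HDM lungs, and skeletal muscle signal was high in WT HDM samples 1 and 2 and WT PBS sample 2.

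Of the 7 tested sensors and transcription factors of the unfolded protein response, 0 were called in either genotype, where 11.1% of all genes were called in KO lungs and 10.7% in WT lungs, less than 1 gene in 7. Their HDM estimates ran from -0.16 to 0.50 on the log2 scale in KO lungs and from -0.17 to 0.42 in WT lungs. Xbp1, the transcription factor whose mRNA is spliced to make its active form, read 2501, 2189 and 2140.0 in KO HDM lungs, against 1532, 2138 and 1247 in KO PBS lungs. All 3 KO HDM samples were above the KO PBS samples, though KO PBS sample 2 came within a few units of them. The fold change was 0.50 ± 0.20 (log2, SE) with an adjusted p of 0.14, and without KO PBS sample 2 it was 0.71 (adjusted p = 0.041). In WT lungs Xbp1 read 2213, 2111 and 2372 after HDM and 1388, 2193 and 2000.0 after PBS, and these ranges overlapped (log2 0.29 ± 0.20, adjusted p = 0.47). A second Xbp1 probe set gave 0.51 ± 0.12 in KO lungs and passed there (adjusted p = 0.021). These arrays do not tell spliced from unspliced Xbp1 mRNA.

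Ern1 encodes the kinase and ribonuclease that splices Xbp1. It read 1056, 1156 and 1046 in KO HDM lungs and 1130.4, 892 and 1168 in KO PBS lungs, and 875, 1018 and 964 in WT HDM lungs and 855, 939 and 889.9 in WT PBS lungs. The HDM and PBS samples overlapped in both genotypes, with log2 fold changes of 0.038 ± 0.12 in KO lungs and 0.088 ± 0.12 in WT lungs. Atf6, the sensor that is cleaved in the Golgi to free a transcription factor, read 335, 386 and 320.3 in KO HDM and 255, 368 and 306 in KO PBS lungs. Its WT values were 357, 340.2 and 329 after HDM and 282, 278 and 207 after PBS. The KO ranges overlapped and the WT ranges did not, and the WT fold change of 0.42 ± 0.16 missed the threshold (adjusted p = 0.14).

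Atf4, the transcription factor made when translation initiation is held back, read 487, 477 and 432 in KO HDM lungs and 503, 559.8 and 498 in KO PBS lungs. The 3 KO HDM samples were below the 3 KO PBS samples, with a log2 fold change of -0.16 ± 0.17 and an adjusted p of 0.64. In WT lungs Atf4 was 396, 542 and 544 after HDM and 486, 724 and 477 after PBS, which overlapped (log2 -0.17 ± 0.17). Ddit3, also known as CHOP, is the pro-apoptotic factor that acts downstream of Atf4. Its signal was 115, 74.6 and 111 in KO HDM and 116, 99.1 and 98.6 in KO PBS lungs, and 143, 99.6 and 136 in WT HDM and 134, 107 and 121 in WT PBS lungs. Both pairs of groups overlapped, at log2 fold changes of -0.076 ± 0.20 and 0.047 ± 0.20 in KO and WT lungs, with 95% confidence intervals of -0.51 to 0.36 and -0.39 to 0.48.

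Creb3l1 and Creb3l2 are membrane-bound factors of the same kind as Atf6 that are known from collagen-secreting cells of bone and cartilage. Creb3l1 read 203, 261 and 187 in KO HDM and 233, 178 and 188 in KO PBS lungs, and 232, 288 and 278 in WT HDM and 208, 227 and 195 in WT PBS lungs. Its ranges overlapped in KO lungs and were apart in WT lungs, where the fold change was 0.33 ± 0.16 (adjusted p = 0.28). Creb3l2 had overlapping values in both genotypes, with group means of 427 ± 23.3 in KO HDM, 437 ± 23.6 in KO PBS, 427 ± 53.5 in WT HDM and 434 ± 52.5 in WT PBS lungs (SD, n = 3 each). Ern2, the epithelial relative of Ern1 that is known from mucus-producing cells, read 6.68, 22.3 and 5.02 in KO HDM and 7.61, 10.5 and 2.40 in KO PBS lungs. In WT lungs it read 26.7, 25.3 and 40.2 after HDM and 10.9, 8.51 and 3.04 after PBS. The WT HDM samples were above the WT PBS samples and above the KO HDM samples, at signals under or near the filter of 33.9.

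**Figure D3:**
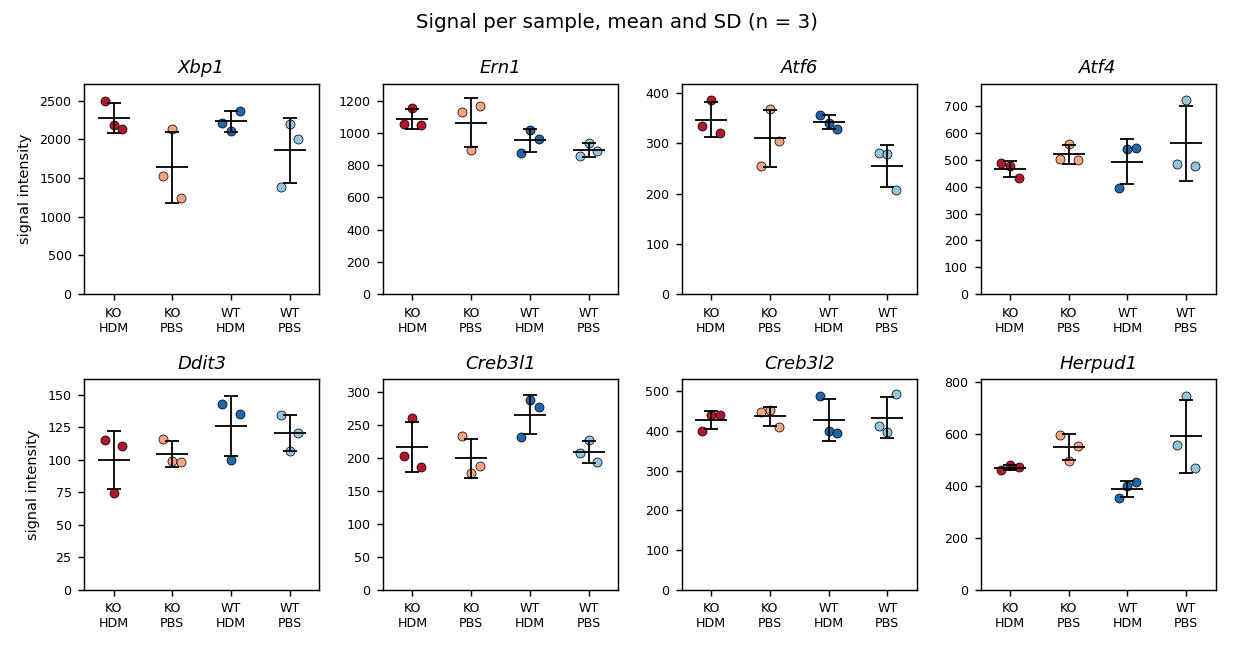
Signal intensity of the 7 tested sensors and transcription factors and of Herpud1, with 1 point per sample and the group mean ± SD (n = 3). The HDM and PBS points of each genotype overlap for Ern1, Ddit3 and Creb3l2, and the 3 WT HDM samples of Herpud1 lie below the 3 WT PBS samples.

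Among the chaperones and their partners, 6 of 11 genes rose in KO lungs (5.81% of all genes) and 5 of 11 in WT lungs (5.51%). Creld2, an ER protein that is itself induced by ER stress, read 728, 737 and 1033 in KO HDM lungs, against 183, 158 and 137 in KO PBS lungs. The WT values were 405, 363 and 645 after HDM, against 130.4, 161 and 127 after PBS. HDM samples were far above PBS samples in both genotypes, and WT HDM sample 3 was the highest of its group. Creld2 rose by 2.33 ± 0.21 log2 in KO lungs (SE, adjusted p = 5.5e-05) and by 1.67 ± 0.21 in WT lungs (adjusted p = 5.3e-04), or 5.22 and 3.37 times as ratios of mean signal.

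Sdf2l1, a partner of the co-chaperone Dnajb11, had signals of 360.5, 328 and 485 in KO HDM and 161, 164 and 107 in KO PBS lungs, and of 328, 242 and 439 in WT HDM and 111, 74.1 and 134 in WT PBS lungs. Its increase was 1.40 ± 0.26 in KO lungs (adjusted p = 0.0061) and 1.60 ± 0.26 in WT lungs (adjusted p = 0.0027), with no overlap of HDM and PBS samples in either. Manf, an ER protein that binds Hspa5 and can be secreted, read 1125, 1207 and 1056 in KO HDM and 474, 435 and 411 in KO PBS lungs, and 937, 830.4 and 1194 in WT HDM and 477, 484 and 316 in WT PBS lungs. Every HDM sample of Manf was above every PBS sample, and the log2 fold changes were 1.35 ± 0.17 and 1.21 ± 0.17 in KO and WT lungs (adjusted p = 5.5e-04 and 9.9e-04).

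Dnajb11, which hands newly made proteins to Hspa5, read 379, 406 and 407 in KO HDM and 213, 219 and 223 in KO PBS lungs, and 227, 239.5 and 418 in WT HDM and 226, 214 and 151 in WT PBS lungs. The KO groups were well apart, while WT HDM samples 1 and 2 lay just above WT PBS sample 1 and WT HDM sample 3 lay with the KO HDM samples. Dnajb11 rose by 0.84 ± 0.21 in KO lungs (adjusted p = 0.028) and missed the threshold in WT lungs at 0.53 ± 0.21 (adjusted p = 0.17). The KO call was lost when any 1 of KO HDM samples 1, 2 or 3 or KO PBS samples 1, 2 or 3 was left out (adjusted p from 0.064 to 0.088). Hsp90b1, also known as GRP94, is the ER form of HSP90. It read 1291, 1146 and 1128 in KO HDM and 705, 528 and 818 in KO PBS lungs, and 1069.5, 932 and 1024 in WT HDM and 706, 622 and 604 in WT PBS lungs. HDM and PBS samples were apart in both, with increases of 0.81 ± 0.15 in KO lungs (adjusted p = 0.0048) and 0.64 ± 0.15 in WT lungs (adjusted p = 0.018). The WT call was lost when any 1 of WT HDM samples 1 or 3 or WT PBS samples 2 or 3 was left out (adjusted p from 0.057 to 0.062).

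Hspa5, also known as BiP, is the main HSP70 chaperone of the ER and the usual marker of its stress response. Its increase was the smallest among the 18 genes that rose in KO lungs. It read 2862, 3046 and 2825 in KO HDM and 2433, 2098 and 1928 in KO PBS lungs, and 2792, 3353 and 3212 in WT HDM and 1986, 2145 and 2249.7 in WT PBS lungs. All HDM samples were above the PBS samples, and the fold changes were 0.44 ± 0.11 in KO lungs (adjusted p = 0.03) and 0.55 ± 0.11 in WT lungs (adjusted p = 0.01), or 1.35 and 1.47 times. The KO call was lost when any 1 of KO HDM samples 1, 2 or 3 or KO PBS samples 2 or 3 was left out (adjusted p from 0.074 to 0.12).

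Of the chaperones that missed the threshold in both genotypes, the lectin chaperones Calr and Canx, which bind glycoproteins, had KO estimates of 0.27 ± 0.14 and 0.37 ± 0.14 and WT estimates of 0.34 ± 0.14 and 0.22 ± 0.14. Hyou1, which exchanges nucleotide on Hspa5, had 0.49 ± 0.17 in KO lungs and 0.50 ± 0.17 in WT lungs (adjusted p = 0.092 and 0.096), and passed in KO lungs without KO PBS sample 1 (adjusted p = 0.034). Dnajb9, a co-chaperone that holds back Ern1, had 0.23 ± 0.13 and 0.27 ± 0.13. Dnajc3, another Hspa5 co-chaperone, had estimates below 0 from its brightest probe set, -0.21 ± 0.16 in KO and -0.14 ± 0.16 in WT lungs. A dimmer Dnajc3 probe set rose in both, by 0.90 ± 0.17 (adjusted p = 0.0069) and 0.84 ± 0.17 (adjusted p = 0.01), so the direction of Dnajc3 depends on the probe set.

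**Figure D4:**
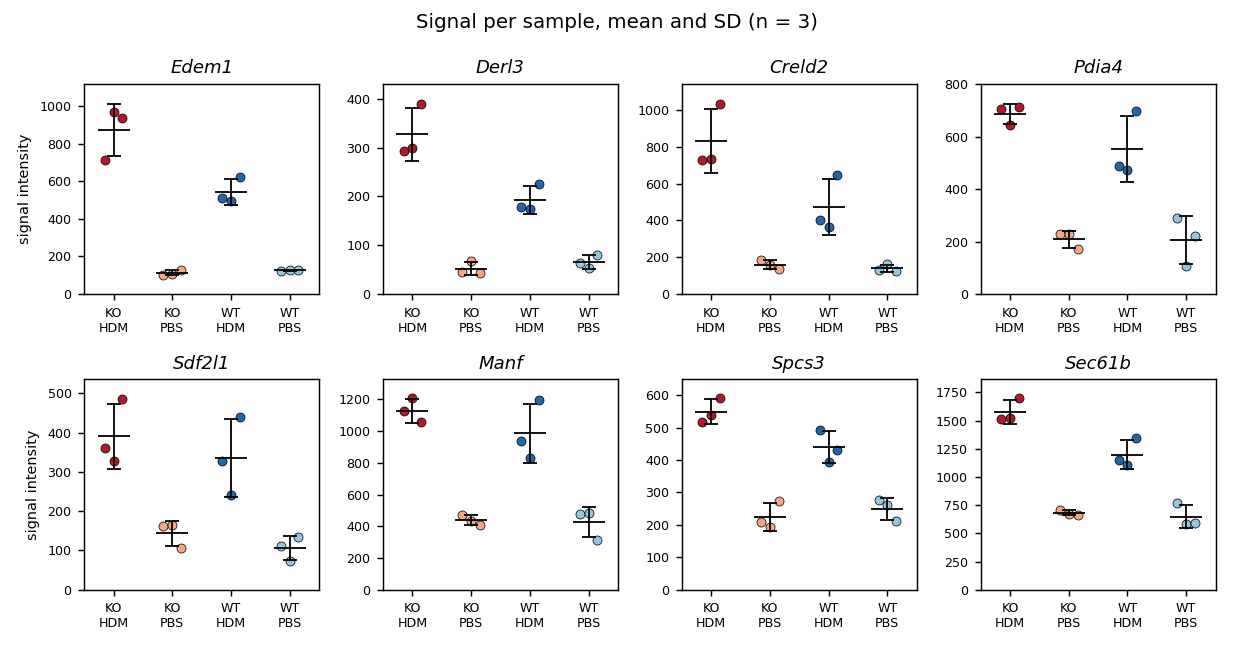
Signal intensity of 8 genes with large HDM effects, with 1 point per sample and the group mean ± SD (n = 3). In each panel the HDM samples lie above the PBS samples of the same genotype, and Edem1, Derl3, Creld2, Spcs3 and Sec61b are higher in all KO HDM samples than in all WT HDM samples.

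The promoters of several of these genes carry the ER stress response element (ERSE), a pair of short motifs that was defined on chaperone genes of this kind and that binds NF-Y and ATF6. Promoter sequence from 250 bases before to 50 bases after the gene start was taken from RefSeq (build GRCm38.p6) for 33 of the 43 genes. No promoter was matched for Hyou1, Manf, Derl1, Ern2, Atf6, Creb3l1, Sec61a1, Ssr2, Spcs3 and Lman1. The full ERSE, which is CCAAT, 9 bases of any kind and CCACG, on either strand, was found in 8 of 33 promoters (24.2%), against 37 of 27025 genes, these 8 included (0.137%). The windows below are shown because they hold the element in genes that rose and in genes that missed the threshold alike. They are printed 5′ to 3′ on the strand of the gene, and capitals mark the fixed bases of the element in either orientation.
Creld2: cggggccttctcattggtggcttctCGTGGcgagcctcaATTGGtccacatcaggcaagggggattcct
Derl3: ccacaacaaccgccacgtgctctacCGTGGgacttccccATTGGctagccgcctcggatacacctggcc
Hsp90b1: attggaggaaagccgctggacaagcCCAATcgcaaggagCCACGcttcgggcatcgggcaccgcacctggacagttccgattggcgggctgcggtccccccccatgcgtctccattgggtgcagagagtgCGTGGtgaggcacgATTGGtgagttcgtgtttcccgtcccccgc
Hspa5: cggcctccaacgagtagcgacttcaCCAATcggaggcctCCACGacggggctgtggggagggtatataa
Pdia6: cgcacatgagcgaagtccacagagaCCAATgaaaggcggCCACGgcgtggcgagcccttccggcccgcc
Calr: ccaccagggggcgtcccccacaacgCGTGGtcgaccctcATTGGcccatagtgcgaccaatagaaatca
Canx: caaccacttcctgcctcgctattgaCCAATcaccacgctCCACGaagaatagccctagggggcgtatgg
Dnajc3: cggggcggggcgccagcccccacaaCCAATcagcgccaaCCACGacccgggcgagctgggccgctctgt
Creld2, Derl3, Hsp90b1, Hspa5 and Pdia6 rose after HDM in both genotypes, and Calr, Canx and Dnajc3 passed in neither. Their windows lie at chr15:88819495-88819563 (plus strand), chr10:75893217-75893285 (plus strand), chr10:86705508-86705681 (minus strand), chr2:34772000-34772068 (plus strand), chr12:17266466-17266534 (plus strand), chr8:84847050-84847118 (minus strand), chr11:50325775-50325843 (minus strand) and chr14:118937802-118937870 (plus strand). Each lies upstream of the annotated gene start, and Hsp90b1 holds the element once in each orientation. Of the 24 tested genes whose promoter lacks a full ERSE, 10 rose in KO lungs and 7 in WT lungs.

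A shorter variant, ERSE-II, which is ATTGG, 1 base of any kind and CCACG, shares the letters CCACG with the ERSE and was found in the promoters of Dnajb11 and Herpud1, against 0.0444% of all genes. The Herpud1 window, chr8:94386352-94386412 (plus strand), is shown because Herpud1 was the ER gene that fell in WT lungs.
Herpud1: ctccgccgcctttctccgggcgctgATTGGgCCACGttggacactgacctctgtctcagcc
The XBP1 element TGACGTGG, whose other strand also holds CCACG, was in 0 of the 33 promoters and in 0.714% of all genes. The letters TTGCATCA, a form of the element bound by ATF4 and CHOP, were in the Herpud1 promoter alone among the 33 and in 1.03% of all genes. A match describes the sequence and does not show binding.

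Of the 4 protein disulfide isomerases, which form and reshuffle disulfide bonds, 2 rose in KO lungs (5.81% of all genes) and 3 in WT lungs (5.51%). Pdia4, also known as ERp72, read 706, 642 and 711 in KO HDM and 227, 229 and 172 in KO PBS lungs, and 487, 474 and 696 in WT HDM and 289, 106 and 221 in WT PBS lungs. HDM samples were above PBS samples in both genotypes, although WT PBS samples varied widely. Its log2 fold change was 1.69 ± 0.28 in KO lungs (adjusted p = 0.0032) and 1.49 ± 0.28 in WT lungs (adjusted p = 0.0068). Pdia6 read 953, 838 and 936 in KO HDM and 581.6, 430.3 and 523 in KO PBS lungs, and 720.1, 726 and 1054 in WT HDM and 580.1, 524 and 461 in WT PBS lungs. The increases of 0.83 ± 0.16 and 0.65 ± 0.16 passed in both genotypes (adjusted p = 0.0079 and 0.029), and the WT call was lost when any 1 of WT HDM sample 3 or WT PBS samples 2 or 3 was left out (adjusted p from 0.07 to 0.11).

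Pdia3, the isomerase that works with Calr and Canx, averaged 1239 ± 69.2 in KO HDM and 1012 ± 18.5 in KO PBS lungs, and 1372 ± 169 in WT HDM and 1029.7 ± 69.9 in WT PBS lungs (SD, n = 3 each). It rose by 0.41 ± 0.11 in WT lungs (adjusted p = 0.036), and the KO estimate was 0.29 ± 0.11 (adjusted p = 0.12), with no overlap of HDM and PBS samples in either. The WT call was lost when any 1 of KO HDM sample 1, KO PBS samples 1 or 3, WT HDM samples 1 or 3 or WT PBS samples 1, 2 or 3 was left out (adjusted p from 0.051 to 0.14). P4hb, the classical protein disulfide isomerase, had 0.28 ± 0.092 in KO and 0.31 ± 0.092 in WT lungs and missed the threshold (adjusted p = 0.083 and 0.064).

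Edem1, of ER-associated degradation, had the largest increase among the ER genes' brightest probe sets in both genotypes, and Herpud1, of the same route, had the single decrease, in WT lungs. Of the 7 degradation genes, 3 rose in KO lungs (5.81% of all genes), and 3 rose and 1 fell in WT lungs (5.51% and 5.18%). Edem1, which marks misfolded glycoproteins for removal by acting on their mannose residues, read 714, 969 and 934 in KO HDM lungs, against 103, 107 and 129 in KO PBS lungs. In WT lungs it read 510.1, 494 and 623 after HDM, against 124, 129 and 126 after PBS. The PBS samples of both genotypes lay in 1 narrow band, and each HDM sample was several times above it. Edem1 rose by 2.87 ± 0.15 in KO lungs (adjusted p = 1.3e-06) and 2.04 ± 0.15 in WT lungs (adjusted p = 6.2e-06), or 7.72 and 4.30 times. A second, dimmer Edem1 probe set gave 0.82 ± 0.22 in KO lungs (adjusted p = 0.04) and 0.33 ± 0.22 in WT lungs (adjusted p = 0.46).

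Derl3, a channel-like membrane protein of the degradation route that is strongly expressed in secretory cells, read 293, 299 and 389 in KO HDM and 44.9, 67.8 and 44.0 in KO PBS lungs, and 177, 174 and 225 in WT HDM and 63.0, 52.4 and 80.2 in WT PBS lungs. Every HDM sample was above every PBS sample, and the 3 KO HDM samples were the highest of the 12. Its fold change was 2.51 ± 0.21 in KO lungs (adjusted p = 2.8e-05) and 1.47 ± 0.21 in WT lungs (adjusted p = 0.0011). Its relatives Derl1 and Derl2 had 0.28 ± 0.12 and 0.076 ± 0.16 in KO lungs and 0.11 ± 0.12 and -0.052 ± 0.16 in WT lungs, and neither passed. Edem2, a relative of Edem1 that starts the trimming of mannose, read 467, 479 and 606 in KO HDM and 259, 252 and 249 in KO PBS lungs, and 368, 336 and 410.0 in WT HDM and 245, 278 and 235 in WT PBS lungs. The HDM samples were above the PBS samples, with increases of 1.0 ± 0.13 in KO lungs (adjusted p = 6.5e-04) and 0.54 ± 0.13 in WT lungs (adjusted p = 0.024). The WT call was lost when any 1 of WT HDM samples 1 or 3 or WT PBS samples 1 or 3 was left out (adjusted p from 0.058 to 0.1).

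Herpud1, a membrane protein that organises the degradation complex and is usually induced by ER stress, went the other way. It read 459.5, 479 and 472 in KO HDM and 596, 497 and 553 in KO PBS lungs, and 355, 399.6 and 414 in WT HDM and 559, 745 and 469.8 in WT PBS lungs. HDM samples were below PBS samples in both genotypes, narrowly so in KO lungs. The log2 fold change was -0.57 ± 0.15 in WT lungs (adjusted p = 0.037) and -0.22 ± 0.15 in KO lungs (adjusted p = 0.44). The second Herpud1 probe set gave -0.85 ± 0.20 in WT lungs (adjusted p = 0.022). The WT call of the brighter probe set was lost when any 1 of KO HDM samples 1, 2 or 3, KO PBS sample 3, WT HDM samples 1, 2 or 3 or WT PBS samples 1 or 2 was left out (adjusted p from 0.053 to 0.11). Sel1l, the adaptor of the same complex, had 0.39 ± 0.15 in KO and 0.22 ± 0.15 in WT lungs, and passed in KO lungs without KO PBS sample 2 (adjusted p = 0.045).

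Of the 11 tested genes for targeting, translocation and signal peptide removal, 7 rose in KO lungs (5.81% of all genes) and 4 in WT lungs (5.51%). Sec61b and Sec61a1 encode subunits of the translocation channel, and Sec61a1 forms its pore. Sec61b read 1511, 1522 and 1702 in KO HDM and 707, 675 and 666 in KO PBS lungs, and 1149, 1103 and 1342 in WT HDM and 767, 588 and 591 in WT PBS lungs. Sec61a1 read 861, 890.2 and 895 in KO HDM and 520.4, 453 and 503 in KO PBS lungs, and 669, 669 and 695 in WT HDM and 487, 507 and 525 in WT PBS lungs. For both genes, on these brightest probe sets, the KO HDM samples were highest, the WT HDM samples next and the PBS samples lowest, without overlap. Sec61b rose by 1.20 ± 0.12 in KO lungs (adjusted p = 1.1e-04) and 0.88 ± 0.12 in WT lungs (adjusted p = 8.7e-04). Sec61a1 rose by 0.84 ± 0.093 (adjusted p = 2.0e-04) and 0.42 ± 0.093 (adjusted p = 0.016) in KO and WT lungs, and the WT call was lost without WT HDM sample 3 (adjusted p = 0.061). Of the dimmer Sec61a1 probe sets, only the second-brightest passed, at 0.49 ± 0.13 in KO lungs (adjusted p = 0.041). It had 0.11 ± 0.13 in WT lungs (adjusted p = 0.71). On the third-brightest, the mean was lower in KO HDM (547) than in WT HDM lungs (592), so the order of the genotypes depends on the probe set.

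The signal peptidase complex cuts the leader from the incoming protein. Its subunit Spcs3 read 518, 537 and 592 in KO HDM and 209, 193 and 274 in KO PBS lungs, and 493, 395 and 432 in WT HDM and 276, 262 and 211 in WT PBS lungs. HDM samples were above PBS samples in both genotypes, with increases of 1.27 ± 0.15 (adjusted p = 3.9e-04) and 0.80 ± 0.15 (adjusted p = 0.0068) in KO and WT lungs. Spcs1 averaged 1264 ± 94.4 in KO HDM and 832 ± 24.2 in KO PBS lungs (SD, n = 3 each) and rose by 0.60 ± 0.13 (adjusted p = 0.016). Spcs2 averaged 932 ± 42.8 in KO HDM and 636 ± 56.1 in KO PBS lungs and rose by 0.55 ± 0.13 (adjusted p = 0.024). In WT lungs HDM and PBS samples of both subunits overlapped, with estimates of 0.28 ± 0.13 and 0.29 ± 0.13 (adjusted p = 0.27 and 0.26). The second probe set of each gene passed in WT lungs as well, at 0.52 ± 0.11 for Spcs1 (adjusted p = 0.014) and 0.50 ± 0.11 for Spcs2 (adjusted p = 0.017). The second Spcs1 probe set was nearly as bright as the first, with a mean signal of 976 against 978. The KO call of Spcs1 was lost when any 1 of KO HDM sample 3 or KO PBS sample 3 was left out (adjusted p from 0.057 to 0.069), and that of Spcs2 when any 1 of KO HDM samples 1, 2 or 3 or KO PBS samples 1 or 3 was left out (adjusted p from 0.054 to 0.094).

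The translocon-associated protein complex, whose subunits are Ssr1 to Ssr4, helps nascent chains into the channel. Ssr4 read 916, 835 and 1043 in KO HDM and 402, 448 and 422 in KO PBS lungs, and 770.1, 752 and 783 in WT HDM and 439.6, 447 and 453 in WT PBS lungs. HDM samples stood clear of PBS samples in both genotypes, and the KO HDM samples spread more widely than the other groups, with increases of 1.12 ± 0.10 in KO lungs (adjusted p = 5.4e-05) and 0.77 ± 0.10 in WT lungs (adjusted p = 6.6e-04). The other 3 subunits missed the threshold: Ssr1, Ssr2 and Ssr3 had 0.28 ± 0.12, 0.44 ± 0.16 and 0.42 ± 0.16 in KO lungs and 0.088 ± 0.12, 0.39 ± 0.16 and 0.47 ± 0.16 in WT lungs. Ssr3 passed in WT lungs without WT HDM sample 1 (adjusted p = 0.027). Srp9, a subunit of the particle that brings ribosomes to the ER, averaged 239 ± 11.8 in KO HDM and 143 ± 17.4 in KO PBS lungs, and 212 ± 52.6 in WT HDM and 136 ± 33.3 in WT PBS lungs (SD, n = 3 each). It rose by 0.72 ± 0.20 in KO lungs (adjusted p = 0.047) and had 0.61 ± 0.20 in WT lungs (adjusted p = 0.096), and the KO call was lost when any 1 of KO HDM samples 1, 2 or 3, KO PBS samples 1, 2 or 3, WT HDM samples 1 or 2 or WT PBS sample 1 was left out (adjusted p from 0.0501 to 0.14). Srpr, the receptor of that particle, had 0.14 ± 0.11 and -0.11 ± 0.11, and Lman1, a lectin that carries glycoproteins out of the ER, had 0.30 ± 0.15 and 0.067 ± 0.15 in KO and WT lungs.

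Because 3 WT samples carried skeletal muscle signal, the calls were repeated without them, which left 1 WT HDM and 2 WT PBS samples, the lone sample being assumed to vary like the other groups. In KO lungs 18 genes were then called and in WT lungs 12, all higher. Hspa5, Hsp90b1, Pdia3, Herpud1, Edem2, Sec61a1 and Spcs3 lost their WT call, and Dnajb11, Ssr3 and Srp9 gained one. Edem1 in WT lungs was then 2.26 on the log2 scale. The lone WT HDM sample was sample 3. Among other genes, it read highest of its group for Edem1, Dnajb11, Creld2, Derl3, Manf, Sdf2l1 and Pdia4, but not for Hspa5, Hsp90b1 or Spcs3. It also had the highest plasma cell marker sum of its group (20153 against 12766 and 14898). Its part in these changes cannot be told apart from that of the muscle signal.

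The comparison of genotypes asks how far the ER genes differed with IL-13 missing. After HDM, 0 of 41 genes passed the test between KO and WT lungs, where 0.732% of all genes were called (0.193% higher in KO lungs). An unadjusted p under 0.05 was found for 9 of 41 genes, against 9.99% of all genes. The estimates leaned upward in KO lungs, with 32 of 41 above 0 (all genes, 53.7%) and a median of 0.18 log2 (all genes, 0.021). KO HDM samples were all above the WT HDM samples for 13 of 41 genes, against 9.65% of all genes, and all below them for 1, Dnajb9, against 7.33% of all genes. The 13 were Hsp90b1, Creld2, Herpud1, Edem1, Edem2, Derl3, Ern1, Sec61a1, Sec61b, Ssr4, Spcs1, Spcs2 and Spcs3. Dnajb9 read 596, 599 and 546 in KO HDM lungs, against 714, 816 and 600.2 in WT HDM lungs (log2 -0.28 ± 0.13, adjusted p = 0.61). The 9 genes with an unadjusted p under 0.05, Edem1, Sec61a1, Creld2, Edem2, Derl3, Sec61b, Ssr4, Spcs1 and Dnajb11, all had estimates above 0.

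The 3 smallest p-values after HDM belonged to Edem1, Sec61a1 and Creld2, whose samples are given above. Edem1 was higher in KO HDM than in WT HDM lungs by 0.67 ± 0.15 log2 (adjusted p = 0.089, 95% confidence interval 0.35 to 0.99). The second Edem1 probe set gave 0.37 ± 0.22 (adjusted p = 0.72). Sec61a1 had 0.38 ± 0.093 (adjusted p = 0.15, interval 0.18 to 0.58). The second-brightest and third-brightest Sec61a1 probe sets gave 0.32 ± 0.13 and -0.12 ± 0.14 (adjusted p = 0.52 and 0.89). Creld2 had 0.84 ± 0.21 (adjusted p = 0.17, interval 0.37 to 1.31). Without WT HDM sample 3 the Creld2 estimate was 1.09 and passed (adjusted p = 0.036). The WT HDM samples then left, 1 and 2, were those with skeletal muscle signal (1916 and 6914). Plasma cell markers were also higher in KO HDM lungs (24680.3, 24896 and 29924) than in WT HDM lungs (12766, 14898 and 20153). Of 11 such genes, 1, Igha, was called higher, against 0.193% of all genes. Goblet and mucous cell markers went the other way, with 7 of 10 tested genes called lower in KO HDM lungs and 0 higher. Over all genes, 0.539% were called lower and 0.193% higher. The median of those 10 genes was -1.84 log2. The actin ratio was lower in KO HDM than in WT HDM lungs, at 0.428 to 0.612 against 0.643 to 0.851 on set B. The part of these cell markers and of the actin ratio in the genotype estimates was not tested. That of the skeletal muscle signal cannot be told apart, since only WT HDM sample 3 is left without it.

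After PBS, 0 of 41 genes passed between KO and WT lungs, where 0.0207% of all genes were called (0.0138% higher in KO lungs). An unadjusted p under 0.05 was found for 0 of 41 genes, against 7.56% of all genes. The median was -0.023 log2, with 20 of 41 estimates above 0 (all genes, 50.1%). No ER gene had groups without overlap (6.63% of all genes did with KO higher and 5.81% with KO lower). The 3 smallest p-values were those of Ern1, Dnajb9 and Atf6. Ern1 had 0.24 ± 0.12 (adjusted p = 0.75) and Atf6 had 0.27 ± 0.16 (adjusted p = 0.79), from the samples given above. Dnajb9 read 435, 533 and 522 in KO PBS lungs, against 523, 597 and 639.6 in WT PBS lungs, which overlapped (log2 -0.24 ± 0.13, adjusted p = 0.78).

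**Figure D5:**
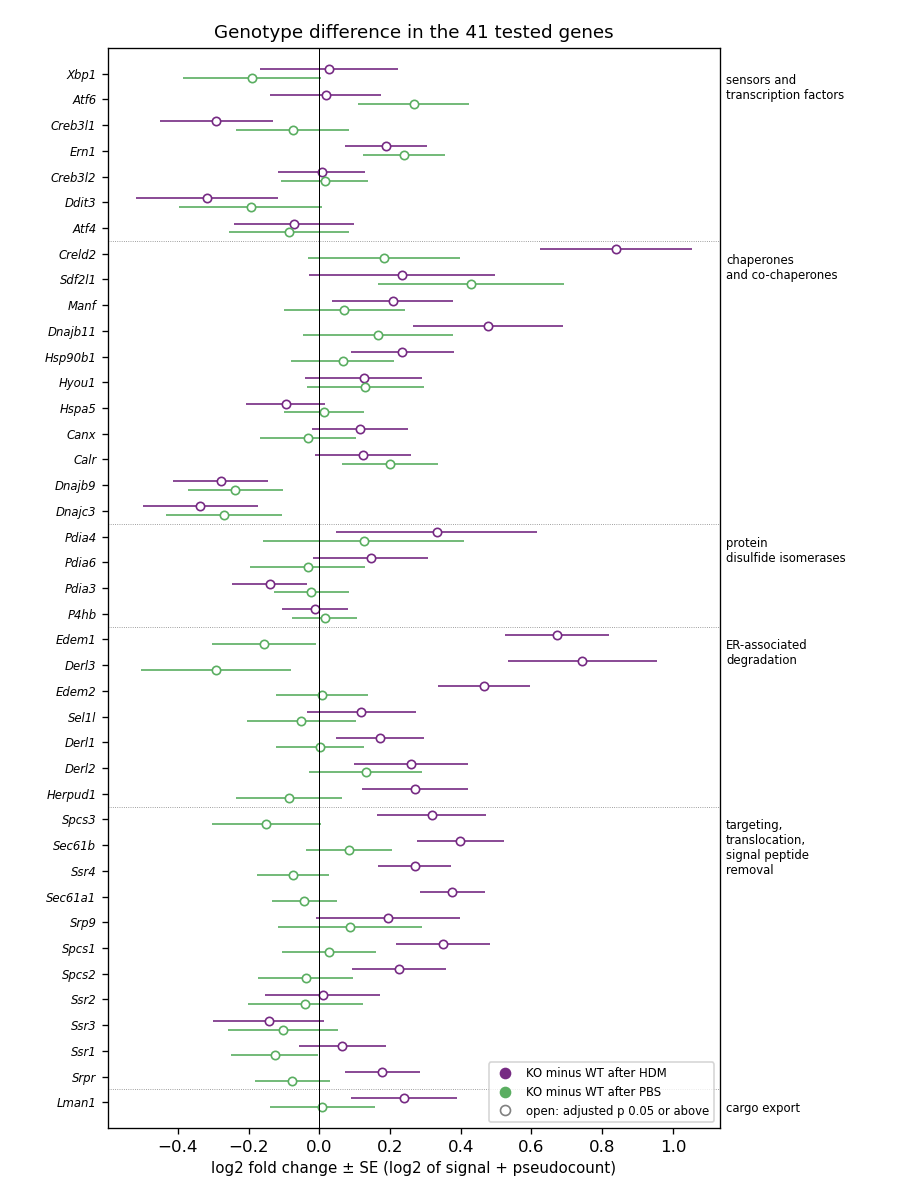
The horizontal axis gives the log2 fold change of KO over WT lungs for each of the 41 tested genes, with its SE, after HDM (purple) and after PBS (green). All points are open because 0 genes passed the test in either condition, and Creld2, Derl3 and Edem1 have the largest estimates after HDM.

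The difference between the HDM effects of the genotypes, KO minus WT, was also tested. Of 41 genes, 0 passed, where 0.173% of all genes were called, and 5 had an unadjusted p under 0.05, against 6.16% of all genes. The median difference was 0.17 log2 (all genes, 0.023), and 27 of 41 estimates were above 0 (all genes, 53.1%). Derl3 had the largest, 1.04 ± 0.30 (adjusted p = 0.61, 95% confidence interval 0.38 to 1.69). Edem1 had 0.83 ± 0.21 (adjusted p = 0.44, interval 0.38 to 1.28) and Sec61a1 had 0.42 ± 0.13 (adjusted p = 0.68, interval 0.13 to 0.70). The second Edem1 probe set gave 0.48 ± 0.31. The second-brightest and third-brightest Sec61a1 probe sets gave 0.37 ± 0.19 and -0.022 ± 0.19. For Hspa5 the difference was -0.11 ± 0.16, with an interval of -0.45 to 0.24. Of the 14 genes that rose in both genotypes, 12 had the larger estimate in KO lungs, the exceptions being Sdf2l1 and Hspa5. Over all genes, 53.1% had the larger estimate in KO lungs. The 14 were picked by their calls in the HDM effects compared here, so their count is no test. Among marker genes, 4 of 10 goblet and mucous cell genes passed in this comparison, all below 0, and 0 of 11 plasma cell genes passed.

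The same routes were followed through genes outside the set. In 7 lists of sensors, stress response genes, chaperones, glycosylation, degradation, translocation and export, 169 genes were tested. Of these, 22 rose and 4 fell in KO lungs and 17 rose and 3 fell in WT lungs. Over all genes, 5.81% rose and 5.32% fell in KO lungs, and 5.51% rose and 5.18% fell in WT lungs. The 169 genes' median log2 fold change was 0.11 in KO and 0.073 in WT lungs, and 0 passed in the comparisons of genotypes or of HDM effects. Among 37 further chaperones, isomerases and oxidases, 9 rose and 1 fell in KO lungs and 8 rose and 1 fell in WT lungs. Mzb1 led them, and it also stands in the plasma cell list. The prolyl isomerase Fkbp11, also known from secretory cells, rose by 1.42 ± 0.23 in KO lungs (adjusted p = 0.0027) and had 0.16 ± 0.23 in WT lungs (adjusted p = 0.78). Cnpy2 rose by 1.43 ± 0.28 in KO lungs and had 0.58 ± 0.28 in WT lungs (adjusted p = 0.0074 and 0.27). The disulfide isomerase Txndc5 rose by 1.26 ± 0.12 and 0.89 ± 0.12 in KO and WT lungs (adjusted p = 5.4e-05 and 5.3e-04).

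Of 19 further translocation and targeting genes, 4 rose and 1 fell in KO lungs and 1 rose and 1 fell in WT lungs. Sec11c, a catalytic subunit of signal peptidase, averaged 636 ± 41 in KO HDM and 179.7 ± 46.7 in KO PBS lungs, and 445 ± 44.1 in WT HDM and 153 ± 13.2 in WT PBS lungs (SD, n = 3 each). It rose by 1.82 ± 0.17 and 1.5 ± 0.17 in KO and WT lungs (adjusted p = 7.3e-05 and 2.6e-04). Tram2 and Srp19, which act in translocation and targeting, rose in KO lungs (0.81 ± 0.16 and 0.66 ± 0.13) and missed the threshold in WT lungs (0.36 ± 0.16 and 0.29 ± 0.13). Bag6 fell in both genotypes (-0.53 ± 0.13 in KO, -0.54 ± 0.13 in WT). Of 18 further genes of the integrated stress response, which include targets of Atf4 and genes that act upstream of it, 3 rose in each genotype. These were the transcription factor Atf3 (1.75 ± 0.38 in KO, 1.84 ± 0.38 in WT), the amino acid transporter Slc7a5 (1.13 ± 0.22 and 0.78 ± 0.22) and the serine synthesis enzyme Psat1 (0.77 ± 0.16 and 0.61 ± 0.16). Of 11 further sensors and transducers, Mbtps1, a protease that cleaves Atf6, fell in KO lungs (-0.35 ± 0.10), and in WT lungs Bak1 rose (0.79 ± 0.22) and Creb3 fell (-0.44 ± 0.10).

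Among 35 genes of export from the ER, 3 rose in each genotype, a count near the share of all genes that rose (5.81% in KO and 5.51% in WT lungs). Kdelr1, the receptor that returns escaped ER proteins, rose by 0.58 ± 0.13 in KO and 0.48 ± 0.13 in WT lungs (adjusted p = 0.015 and 0.041). Ergic1 and Sec24d also rose in KO lungs (0.62 ± 0.16 and 0.50 ± 0.12), and the cargo receptors Tmed3 and Tmed9 rose in WT lungs (0.55 ± 0.13 and 0.61 ± 0.17). Of 28 glycosylation and quality control genes, 1 rose in each genotype, a smaller share than over all genes. It was the oligosaccharyltransferase subunit Ostc (0.88 ± 0.13 in KO, 0.52 ± 0.13 in WT). Of 21 further degradation genes, Ube2j1 and Selenos rose and Herpud2 fell in KO lungs (0.60 ± 0.16, 0.47 ± 0.13 and -0.50 ± 0.12), and 0 passed in WT lungs, where Selenos had 0.41 ± 0.13 (adjusted p = 0.076).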

How the data were processed

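Total RNA of 12 mouse lung samples, 3 per group, was measured on 24 arrays. The authors' deposited values are probe set signal intensities on a linear scale, and from the values each array was scaled to a common mean after trimming 2% at each end; the algorithm is not given in the sources used here. Each probe set was named through the platform annotation, with symbols updated through RefSeq.

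Here the intensity plus a pseudocount (each array set's 10th percentile, 6.82 on set A and 10.7 on set B) was turned to log2. Probe sets with a mean under the set's 30th percentile (33.9 and 43.4) were left out, as were 64 control probe sets per array set, which left 31596. limma 3.58.1 in R 4.3.3 fitted the 4 group means (8 residual degrees of freedom, eBayes with an intensity trend), p-values were adjusted by Benjamini-Hochberg across the 31596 probe sets, separately in 5 comparisons, and calls were made at 0.05. The fold changes of dim genes are understated by the pseudocount. A gene is represented by its brightest single-gene probe set, which lies on set A for 35 of the 41 tested ER genes and on set B for Canx, Derl1, Ssr3, Sel1l, Ern1 and Atf6. For 4 of the 41 it has a suffix (s or x) that marks possible cross-hybridisation. Both array sets carry 100 probe sets in common, which read 3.61 times higher on set B (median). Replicate numbers were not used to pair samples, as the labels state no pairing. Of 18 same-numbered pairs, 1 had residuals correlated above 0.1. With 3 samples per group this cannot exclude a shared origin of equal numbers. The number of arrays limits the precision.

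The ER genes, the pathway and marker lists and the rules for naming genes (every called ER gene, all sensors, the 3 smallest p-values where none was called, and up to 4 called genes per list) were chosen with earlier results of these data known. Alternatives were no filter, other pseudocounts, no trend, quantile normalization, fits of the compared groups only, a replicate block, leaving out each sample or the 3 with muscle signal, and other probe sets.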

Additional observations from a re-analysis of the deposited data

How the results depend on the processing

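The count of ER genes called after HDM in KO lungs, 18, was 15 to 19 with no filter, no intensity trend, other pseudocounts, quantile normalization, the compared groups only or a replicate block, and 13 to 18 when 1 sample was left out. In WT lungs the count of 16 was 12 to 17 under the same settings except for the compared groups only, which gave 9 from fewer samples, and 10 to 16 when 1 sample was left out. The lowest, 10, was without WT HDM sample 3, where 1 gene, Creld2, also passed between KO HDM and WT HDM lungs. The WT HDM samples left there, 1 and 2, carried skeletal muscle signal. With the replicate block 16 genes were called in KO and 14 in WT lungs, and 0 in the other comparisons. Reading each gene from its second-brightest probe set, which 29 of the 41 genes have, gave 9 calls in KO and 4 in WT lungs, and the sign turned for Edem2 (-0.18) and Ssr4 (-0.60) in KO lungs and for Pdia3 (-0.021), Pdia4 (-0.13), Pdia6 (-0.055), Edem2 (-0.059) and Ssr4 (-0.60) in WT lungs; these probe sets were dimmer and the cause was not tested. A further pair of alternatives was chosen after seeing the data: reading shared probe sets on set A gave 18 and 16 calls, and counting a gene when any of its probe sets passed gave 24 in KO and 20 in WT lungs. The comparisons of genotypes gave 0 calls under each alternative except the one named, and the interaction gave 0 under each run; it could not be fitted on fewer than the 4 groups. Without the 3 samples with muscle signal 18 ER genes were called in KO and 12 in WT lungs. Over all 14480 genes the calls for HDM in WT lungs, 1548, were then 625, those for KO against WT after HDM, 106, were 27, and those for the interaction, 25, were 2. Leaving out 1 sample gave 947 to 1643 calls for HDM in KO lungs (1613 with all samples), 933 to 1482 in WT lungs, 54 to 108 for KO against WT after HDM, 1 to 8 after PBS (3 with all samples) and 7 to 18 for the interaction. The compared groups only gave 765 calls for HDM in WT lungs, and the interaction had 15 with a pseudocount of 1 and 11 with the replicate block. Calls after PBS were 1 with no trend, with the compared groups only or without the 3 samples, and 5 with quantile normalization.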

Other observations

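Other probe sets of the same gene did not always give the same call. Of the 18 genes called in KO lungs, 11 had another tested probe set, and of these 17 further probe sets 5 were called and 14 had the same sign. In WT lungs 10 of the 16 called genes had 16 further probe sets, of which 2 were called and 8 had the same sign. Ssr4, a subunit of the translocon-associated complex, had signals of 89.7 ± 54.4 in KO HDM lungs and 124 ± 43.0 in KO PBS lungs (SD, n = 3 each) on its second probe set, a log2 fold change of -0.60 ± 0.46 (SE). Among genes whose brightest probe set missed the threshold, another probe set passed for Dnajc3, Lman1, Sel1l, Ssr1, Ssr3 and Xbp1 in KO lungs and for Dnajc3, Hyou1, Spcs1 and Spcs2 in WT lungs.

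Ern2, the epithelial sensor that was under the filter, could be fitted when no filter was set. After HDM against PBS it then had 0.34 ± 0.36 log2 in KO lungs (adjusted p = 0.69) and 1.41 ± 0.36 in WT lungs (adjusted p = 0.047). The difference between those effects, -1.07 ± 0.52, did not pass (adjusted p = 0.9).

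Cell cycle markers, which are not ER genes, also rose after HDM: 7 of 7 tested were called in each genotype, and they summed to 1697 to 1777 in KO HDM and 341 to 385 in KO PBS lungs, against 1222 to 1494 in WT HDM and 453 to 488 in WT PBS lungs. Alveolar type 2 markers, from cells that secrete surfactant through the same ER route, summed to 30534 to 32447 in KO HDM and 27653 to 32982 in KO PBS lungs, and to 26915 to 33929 in WT HDM and 32099.5 to 33331 in WT PBS lungs. Of the 9 tested, 0 were called in KO lungs and 2 were lower in WT lungs after HDM. Club cell markers, from another secretory epithelial cell, summed to 24225 to 24464 in KO HDM and 23834 to 29868 in KO PBS lungs, and to 17686 to 21136 in WT HDM and 26189.8 to 30574 in WT PBS lungs, with 1 of 7 higher and 2 lower in KO lungs and 4 of 7 lower in WT lungs. Summed alveolar type 1 markers were 21252 to 23639 in KO HDM and 28865 to 32712 in KO PBS lungs, and 15242 to 20088 in WT HDM and 23915 to 29029 in WT PBS lungs. Fibroblast markers summed to 8446 to 8850.0 in KO HDM and 7051 to 7805 in KO PBS lungs, and to 9192 to 10404 in WT HDM and 7848 to 8181 in WT PBS lungs. Of 7 alveolar type 1 markers 3 were lower in KO and 4 in WT lungs, and of 7 fibroblast markers 2 were higher and 1 lower in KO lungs and 2 higher in WT lungs. For cardiac muscle markers the sums were 1048 to 1520.3 in KO HDM and 2023 to 4043 in KO PBS lungs, and 1719 to 1861 in WT HDM and 2154 to 2604 in WT PBS lungs, with 5 of 6 lower in KO and 1 of 6 lower in WT lungs. Of 9 skeletal muscle markers 0 were called in either genotype.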
